A study of Homo sapiens with 12 samples.

Results

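Human chromosomes carry long segmental duplications around several of their centromeres, and 7 blocks that span such places, with single-copy DNA among the copies, were examined for binding of guide-directed dCas9. The blocks were set by position in the hg19 build: chromosome 1 from 142500000 to 149900000, chromosome 2 from 87000000 to 98000000, chromosome 7 from 56000000 to 66000000, chromosome 9 from 38500000 to 71000000, chromosome 10 from 38000000 to 52000000, chromosome 15 from 20000000 to 23000000 and chromosome 16 from 32000000 to 35300000. A peak counted as a member when its start lay inside a block, whatever its score. Of 58042 peaks in 9 deposited lists, 825 (1.42%) were members and 57217 lay elsewhere. The rule uses positions alone and no score, width or overlap, but the blocks were picked with earlier results of these lists known.

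Segmental duplications are stretches of DNA present in several nearly identical copies. Those near centromeres are among the most recent in the human genome, and the block on chromosome 1 spans 1q21, known for the copies of the NBPF gene family. A short sequencing read from such a copy may align equally well to several places, and a region that is present in more copies in the cells than in the assembly may collect more reads. The sources used here do not say how reads with several matches were treated. The effect of copy number and alignment on the values below was not tested.

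The libraries came from HEK 293T, a human embryonic kidney line with the SV40 large T antigen. The cells had been transfected with HA-tagged dCas9, a Cas9 that binds DNA without cutting, and 1 of 6 single guide RNAs (sgRNAs), then harvested 3 days later. A guide leads Cas9 to sequence that pairs with it beside a short protospacer adjacent motif, and pairing over the guide's end next to that motif can be enough for binding. After crosslinking and sonication the protein was recovered with an HA antibody (ChIP-seq). Guides sgRNA1, sgRNA2 and sgRNA3 were each sequenced in a replicate 1 and a replicate 2 library, and sgRNA4, sgRNA5 and sgRNA6 in a single library without replicate. Cells with dCas9 and no guide were not analysed here, so no level without a guide stands beside these values. The guides' sequences and intended targets are not in the labels, and no genome or annotation of hg19 was used. Regions are therefore named by position, without genes or sequences, and whether a given peak falls in an annotated duplication was not checked.

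The lists differed in length from 41 peaks in sgRNA3 replicate 1 to 33611 in sgRNA6, and so did the number of members. Read depth is unknown, since the lists hold no counts. sgRNA6 placed 414 peaks in the blocks, sgRNA4 178 and sgRNA5 163. These 3 lists together supplied 755 of the 825 members (91.5%). The replicate 2 lists held 28 members for sgRNA1, 15 for sgRNA2 and 16 for sgRNA3, and the replicate 1 lists 3, 4 and 4. The replicate 1 values rest on so few peaks that each one moves its share by more than 1 percentage point.

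**Figure D1:**
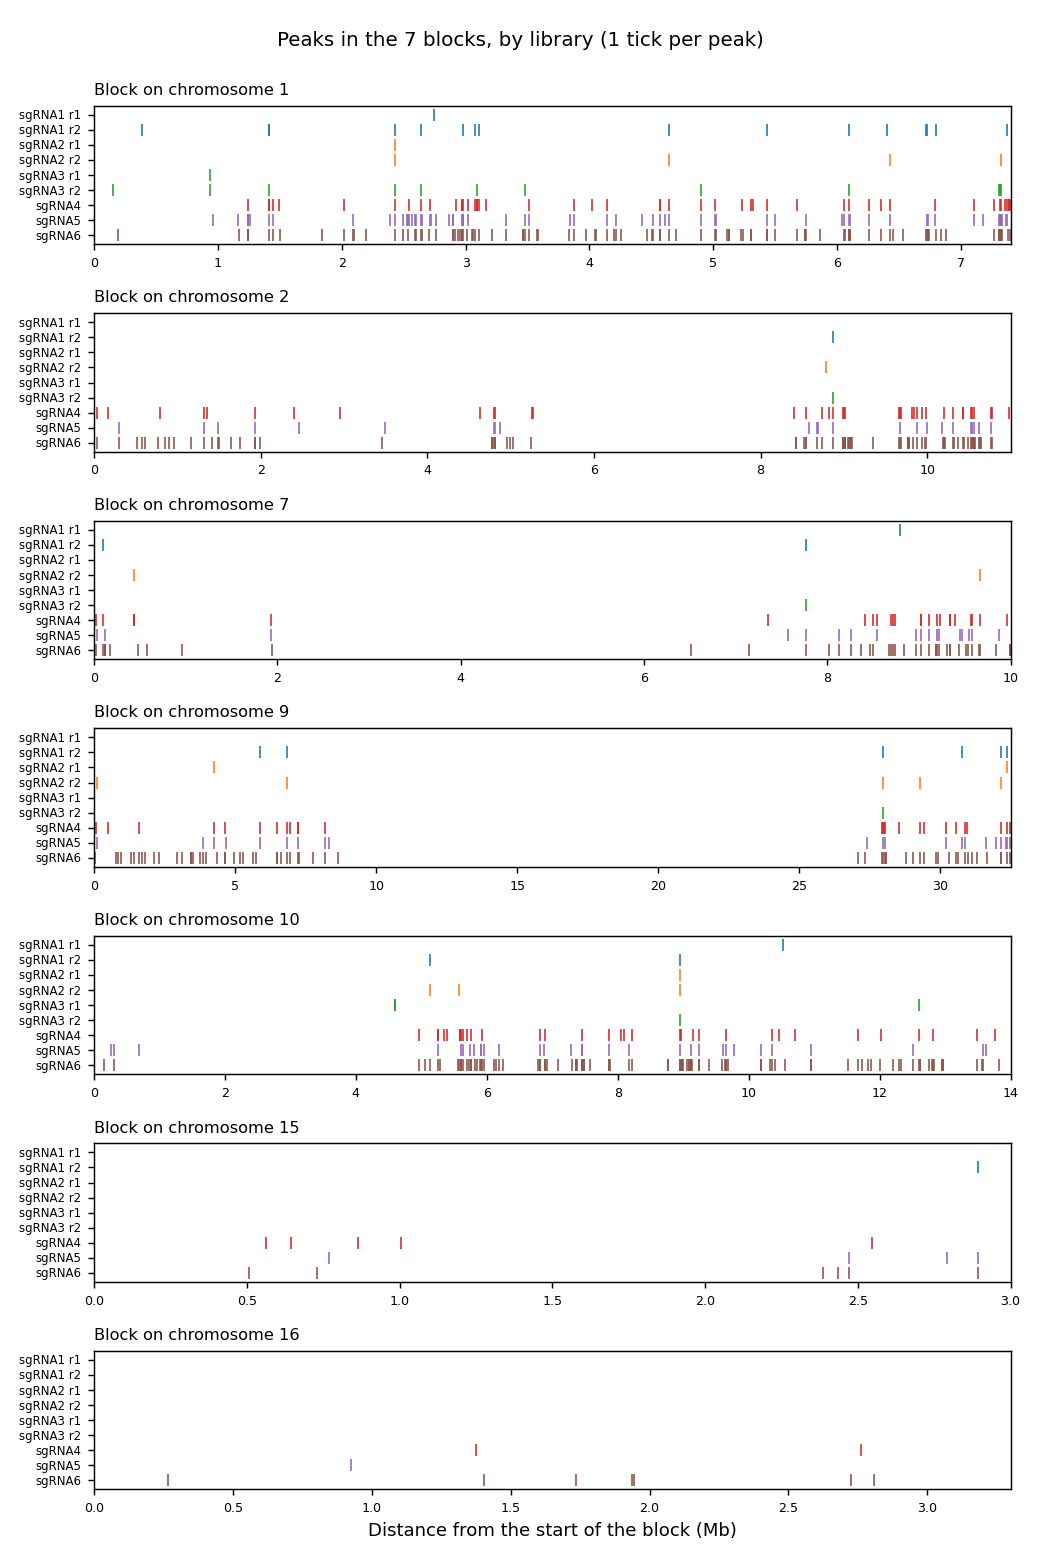
Position of every member peak (1 tick each) along the 7 blocks, in Mb from the start of the block, with 1 line for each library (r1 and r2, replicates 1 and 2). Ticks run along the whole chromosome 1 block, whereas the chromosome 9 block holds a stretch of 18.4 Mb without a peak in any library.

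As a share of their own list, members made up 1.23% of sgRNA6 peaks (exact Clopper-Pearson 95% interval 1.12 to 1.36%), 1.30% of sgRNA4 peaks (1.12 to 1.51%) and 1.95% of sgRNA5 peaks (1.67 to 2.27%). The interval of sgRNA5 does not overlap those of the other two single libraries. These intervals, like all below, cover counting error and not the spread between libraries. They treat peaks as independent, and sgRNA4, sgRNA5 and sgRNA6 have 1 library each. Whether intervals overlap is therefore no test between guides. In the replicated guides the share was 2.19% (1.46 to 3.15%) in sgRNA1 replicate 2, 2.63% (1.48 to 4.30%) in sgRNA2 replicate 2 and 4.19% (2.41 to 6.71%) in sgRNA3 replicate 2. In the replicate 1 lists it was 3.13% (0.649 to 8.86%) with sgRNA1, 6.90% (1.91 to 16.7%) with sgRNA2 and 9.76% (2.72 to 23.1%) with sgRNA3. The longer list of each replicated guide thus gave the smaller share.

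The share averaged 2.66 ± 0.660% with sgRNA1, 4.76 ± 3.02% with sgRNA2 and 6.97 ± 3.94% with sgRNA3 (SD, n = 2 each). The highest and lowest guide means were 4.31 percentage points apart (exact permutation test over the 6 libraries, two-sided, p = 0.333; 15 arrangements can give no p under 0.0667). The order sgRNA3 above sgRNA2 above sgRNA1 was the same in both replicates, and with the replicate number as a block the exact permutation test gave p = 0.167, the smallest that 6 arrangements can give. Neither test passed 0.05, and neither could have done so, whatever the difference. Replicate 2 minus replicate 1 was -0.934 points for sgRNA1, -4.26 for sgRNA2 and -5.57 for sgRNA3. All 3 guides moved the same way, with a mean of -3.59 points, and the exact two-sided sign-flip permutation test over 3 guides gave p = 0.25, the smallest it can give. Nothing in the labels says that replicates were separate cultures, so these p-values measure the spread between libraries, which may be technical.

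Peak density in the blocks and elsewhere differed in both directions among the guides. The 7 blocks hold 81.2 Mb, or 2.67% of the length up to the last peak of each chromosome. In sgRNA4 there were 2.19 peaks per Mb inside the blocks and 4.56 outside, in sgRNA5 2.01 inside and 2.77 outside, and in sgRNA6 5.10 inside and 11.2 outside. All 3 single libraries were therefore sparser in the blocks. The sgRNA3 lists were denser there, with 0.0493 per Mb inside and 0.0125 outside in replicate 1 and 0.197 inside and 0.124 outside in replicate 2. In sgRNA2 the density was 0.0493 inside and 0.0183 outside in replicate 1, and 0.185 inside and 0.188 outside in replicate 2. In sgRNA1 it was 0.0369 inside and 0.0315 outside in replicate 1, and 0.345 inside and 0.423 outside in replicate 2. Over the 6 guides the mean log2 ratio of density inside to outside was -0.11 ± 0.98 (SD), a fold of 0.926, positive in 2 guides and negative in 4 (exact sign-flip permutation test, two-sided, p = 0.781, Benjamini-Hochberg adjusted p = 0.781 over 4 measures; smallest possible p 0.031).

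The length of the blocks includes long stretches without a peak in any list. The longest was 18.4 Mb on chromosome 9 (47165406 to 65576361), followed by 4.57 Mb on chromosome 7 (57939425 to 62511319), 3.90 Mb on chromosome 10 and 3.14 Mb on chromosome 2. Leaving out every peak-free stretch over 3 Mb, inside and outside alike, shortened the blocks to 50.02 Mb and the rest to 2737 Mb, which by construction raises the density inside relative to outside. On these lengths sgRNA5 had 3.26 peaks per Mb inside against 2.99 outside, sgRNA4 3.56 against 4.93 and sgRNA6 8.28 against 12.1. The lengths were cut by the same peaks they are set against, so nothing is read from the direction in sgRNA5.

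**Figure D2:**
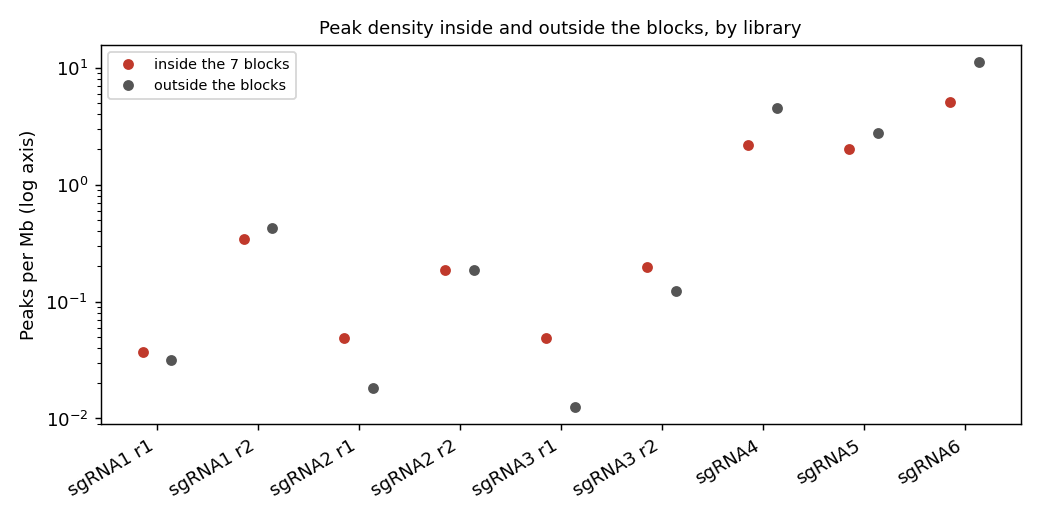
Peaks per Mb (log axis) inside the 7 blocks (red) and outside them (grey) in each library, over the whole length. The sgRNA4, sgRNA5 and sgRNA6 libraries sit lower inside than outside, and both sgRNA3 libraries sit higher inside.

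The blocks differed in how many libraries reached them. Those on chromosomes 1 and 10 held peaks of all 9 libraries, those on chromosomes 7 and 9 of 7, that on chromosome 2 of 6, that on chromosome 15 of 4 and that on chromosome 16 of 3. sgRNA4, sgRNA5 and sgRNA6 had peaks in all 7 blocks. sgRNA1 replicate 2 had peaks in 6, sgRNA2 replicate 2 and sgRNA3 replicate 2 in 5 each, sgRNA1 replicate 1 and sgRNA2 replicate 1 in 3 each, and sgRNA3 replicate 1 in 2. No list reached fewer blocks than a shorter list did.

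Chromosome 1 held the most members, 253 in 7.4 Mb or 34.2 per Mb over all lists. The blocks on chromosomes 2 (150 peaks, 13.6 per Mb), 10 (181, 12.9 per Mb) and 7 (91, 9.10 per Mb) came next by density. Those on chromosomes 15 (16 peaks, 5.33 per Mb), 9 (124, 3.82 per Mb) and 16 (10, 3.03 per Mb) were sparse. For the whole of chromosome 1 the density was 28.4 per Mb, so over all lists the block there was slightly denser than its chromosome. These densities count peak-free stretches, which fall unevenly. The chromosome 9 block includes a stretch of 18.4 Mb. On chromosome 1 the nearest peak below the block started 21239.2 kb from its border. That stretch lowers the density of the chromosome and not of the block. Pooled over all lists, the other 6 blocks were less dense than their chromosomes, by little on chromosome 2 (14.1 per Mb over the chromosome) and by most on chromosome 16 (30.8 per Mb). sgRNA6 supplies 414 of the 825 pooled members, and some single lists went the other way. On chromosome 2, sgRNA4 had 3.55 peaks per Mb in the block and 3.19 over the chromosome. On chromosome 10, sgRNA3 replicate 1 had 0.214 in the block and 0.0295 over the chromosome, and sgRNA2 replicate 2 had 0.214 and 0.148, with 3 members each. The other lists that were denser in 1 of these 6 blocks than over its chromosome had 1 or 2 members there, and in the blocks on chromosomes 15 and 16 no list was denser.

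The chromosome 1 block took a different part of the members of each guide. In sgRNA3 replicate 2 it held 12 of 16 members (75.0%), in sgRNA1 replicate 2 16 of 28 (57.1%) and in sgRNA5 65 of 163 (39.9%). It held 49 of 178 sgRNA4 members (27.5%), 4 of 15 sgRNA2 replicate 2 members (26.7%) and 104 of 414 sgRNA6 members (25.1%). Set against all of chromosome 1, sgRNA5 had 8.78 peaks per Mb in the block and 4.39 over the chromosome, and sgRNA3 replicate 2 had 1.62 and 0.313. sgRNA1 replicate 2 had 2.16 per Mb in the block and 0.895 over the chromosome. sgRNA4 had 6.62 and 6.61, which is nearly level, and sgRNA6 14.1 and 15.7. The length of the chromosome, and not that of the block, includes the long peak-free stretch below the block. Within the block, 59 of the 253 peaks (23.3%) fell between 2 and 3 Mb from its start, and 6 in its first Mb.

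Peaks also stood in runs of neighbours less than 50 kb apart. The longest run by number of peaks lay on chromosome 1 at 145365529 to 145611594, with 33 peaks of 5 libraries in 18 separate regions: 13 of sgRNA6, 9 of sgRNA4, 7 of sgRNA5, 3 of sgRNA1 replicate 2 and 1 of sgRNA3 replicate 2. On chromosome 10 a run of 19 peaks spanned 43698775 to 43951614, and on chromosome 2 another of 19 spanned 97493888 to 97643643. Both held peaks of sgRNA4, sgRNA5 and sgRNA6 alone, as did the run of 11 on chromosome 7 at 65397005 to 65580790. The longest run on chromosome 9 (66457209 to 66494922) held 9 peaks of 6 libraries in only 2 regions, while those on chromosomes 15 and 16 held 4 and 3 peaks.

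Peaks of all lists that shared at least 1 bp were joined into regions, giving 571 regions inside the blocks and 42867 outside. Of the 571, 144 (25.2%) were found with at least 2 guides, where 21.3% of all 43438 regions were. At least 3 guides marked 59 regions inside (10.3%; 7.3% of all regions), at least 4 marked 17 (2.98%; 1.93%), at least 5 marked 12 (2.10%; 0.479%) and all 6 marked 3 (0.525%; 0.0599%). Outside the blocks 9129 regions (21.3%) were found with at least 2 guides, 196 (0.457%) with at least 5 and 23 (0.0537%) with all 6. Exactly 4 guides marked 5 regions inside (0.876%) and 627 outside (1.46%). The higher share inside at 4 or more guides thus came from the regions found with at least 5. The share of regions found with at least 2 guides thus lay close to the background, and the share with at least 5 guides lay above it, on 12 regions. Regions are not replicates and no test was made of these shares.

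**Figure D3:**
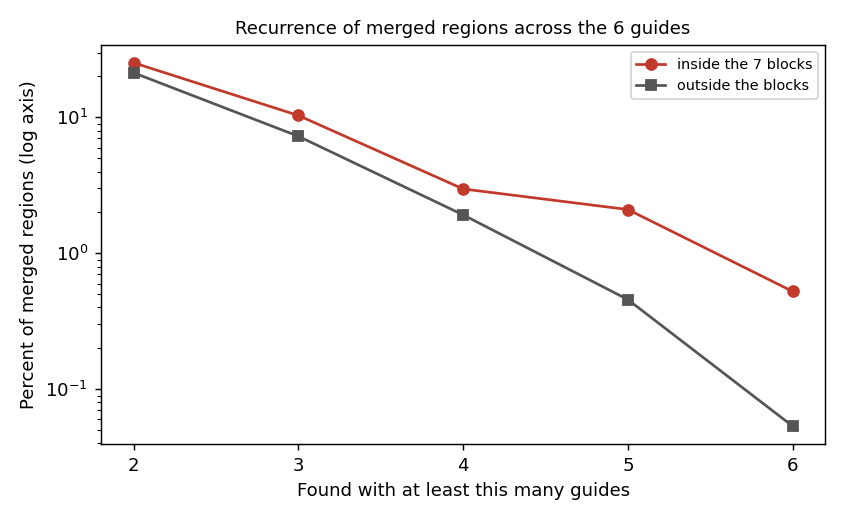
Percent of merged regions (log axis) found with at least the given number of guides, inside the 7 blocks (red circles, 571 regions) and outside (grey squares, 42867 regions). The lines lie close together at 2 guides, at 25.2% inside and 21.3% outside, and apart at 6 guides, at 0.525% inside and 0.0537% outside.

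Most regions belonged to a single guide. sgRNA6 alone accounted for 277 of the 571 (48.5%), sgRNA4 alone for 76 (13.3%) and sgRNA5 alone for 61 (10.7%). The most frequent combinations were sgRNA5 with sgRNA6 (35 regions), sgRNA4 with sgRNA6 (34) and those 3 guides together (33). The chromosome 1 block held 58 of the 144 regions found with at least 2 guides, out of 138 regions there (42.0%). The blocks on chromosomes 9 (25.9%), 7 (22.1%), 10 (20%), 2 (16.7%) and 15 (14.3%) had lower shares, and none of the 10 regions on chromosome 16 was found with a second guide. Of the 12 regions found with at least 5 guides, 6 lay on chromosome 1, 4 on chromosome 9 and 1 each on chromosomes 2 and 10.

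The 3 regions marked by all 6 guides lay on chromosomes 1, 10 and 9. That on chromosome 1 spanned 144930545 to 144933159 and was found in 7 libraries. Its score, the authors' value for each peak, was 184.88 in sgRNA1 replicate 2 (rank 16 of its list), 120.03 in sgRNA2 replicate 1 (rank 4), 183.1 in sgRNA2 replicate 2 (rank 2), 150.23 in sgRNA3 replicate 2 (rank 8), 233.89 in sgRNA4 (rank 591), 367.79 in sgRNA5 (rank 27) and 891.69 in sgRNA6 (rank 167). All 7 peaks were in the top 10% of their lists, and the list of sgRNA2 replicate 2 held only 1 higher peak anywhere. Peak widths there ran from 1275 bp in sgRNA2 replicate 1 to 2615 bp in sgRNA6. No score in any list lay under 50, and scores are compared only by rank within their own list.

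The chromosome 10 region, 46951170 to 46952181, was also found in 7 libraries, at very unequal ranks. It stood at rank 107 in sgRNA6 (score 1071.63), 387 in sgRNA5 (152.85), 1378 in sgRNA4 (166.99) and 49 in sgRNA2 replicate 2 (87.11). In sgRNA1 replicate 2 (62.51, rank 681), sgRNA3 replicate 2 (56.91, rank 243) and sgRNA2 replicate 1 (53.43, rank 43) it lay below the middle of the list by score. Its peaks were narrower than those of the chromosome 1 region, at 715 to 957 bp. The chromosome 9 region, 66492846 to 66494922, was found in 6 libraries, with rank 7 in sgRNA1 replicate 2 (289.84), rank 7 in sgRNA2 replicate 2 (135.44), rank 11 in sgRNA3 replicate 2 (130.39), rank 12 in sgRNA5 (503.75) and rank 2505 in sgRNA6 (302.72). sgRNA4 had a pair of peaks there, at ranks 573 (236.06) and 3971 (100.8). It was thus among the 12 highest peaks of 4 libraries. In all 6 but sgRNA6 it held the library's highest member on chromosome 9, which for sgRNA3 replicate 2 was also its only one there.

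Among the 9 regions found with 5 guides, 2 on chromosome 1 also ranked high. The region 148598070 to 148599715 held the highest member of 3 libraries: 1356.35 in sgRNA6 (rank 62), 647.63 in sgRNA5 (rank 7) and 164.96 in sgRNA3 replicate 2 (rank 6). It stood at rank 2454 in sgRNA4 (128.2) and 453 in sgRNA1 replicate 2 (70.71), and no sgRNA2 peak overlapped it. The region 143912171 to 143916199, the widest of all at 4029 bp, was found with every guide but sgRNA2, at rank 10 in sgRNA3 replicate 2 (142.93), 14 in sgRNA5 (446.04), 422 in sgRNA6 (636.35) and, for the higher of 2 peaks each, 37 in sgRNA1 replicate 2 (145.38) and 836 in sgRNA4 (204.33).

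Of the other regions found with 5 guides, that on chromosome 9 at 45355633 to 45357509 ranked 51 in sgRNA5 (281.72) and 31 in sgRNA2 replicate 2 (97.62), and was missing only with sgRNA3. That on chromosome 9 at 70856443 to 70857226 reached rank 14 in sgRNA2 replicate 1 (62.17) but 10212 in sgRNA6 (129.54). The only one on chromosome 2, 95872587 to 95873589, stood at rank 72 in sgRNA5 (245.22) and below the middle of the sgRNA1 replicate 2 (54.78), sgRNA3 replicate 2 (58.65) and sgRNA4 (60.0) lists. Those on chromosome 1 at 145139085 to 145140102, 147141602 to 147143129 and 149821671 to 149823250 ranked 749, 294 and 4272 in sgRNA5. Recurrence with many guides thus went with high ranks in some regions and with scores close to the floor of 50 in others. On chromosome 9 at 70645148 to 70647614, and in the last of the chromosome 1 regions, not all peaks overlap each other: joined regions can chain neighbours.

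The remaining blocks had no region found with 5 guides. On chromosome 7 the most recurrent region was 63767467 to 63768493, with 4 guides: rank 194 in sgRNA5 (187.04), 3009 in sgRNA6 (277.1), 727 in sgRNA1 replicate 2 (60.3) and 271 in sgRNA3 replicate 2 (55.22). On chromosome 15 the region 22893475 to 22894097 was found with sgRNA5 (72.02) and sgRNA1 replicate 2 (66.76). On chromosome 16 the region taken by the same rule, 33936981 to 33937838, was found with sgRNA6 alone, at rank 384 (653.27). The chromosome 16 block thus held a peak in the top 2% of its list that no other list contained.

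High scores and recurrence did not always go together. The highest members of sgRNA4 lay on chromosome 10 at 43583109 to 43584350 (448.78, rank 115) and on chromosome 2 at 88354845 to 88355553 (373.61, rank 174), and neither was found with another guide. Its next, on chromosome 1 at 144520840 to 144521348 (320.83, rank 256), was found with sgRNA6 as well. In sgRNA6, the peak on chromosome 1 at 148247169 to 148248351 (930.3, rank 154) was shared with sgRNA5 alone. In sgRNA2 replicate 2, rank 18 (107.57) lay on chromosome 9 at 38620282 to 38621331 and was shared with sgRNA5 alone.

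Within the single libraries, members shared with another guide had higher scores than the rest. Score percentile runs from 0 for the lowest peak of a list to 100 for the highest. Its median was 59.8 for 102 shared and 34.9 for 76 unshared members of sgRNA4, 70.2 for 102 shared and 41.0 for 61 unshared members of sgRNA5, and 73.8 for 137 shared and 43.3 for 277 unshared members of sgRNA6. The same order held outside the blocks, with 59.0 and 40.5 in sgRNA4, 59.7 and 34.5 in sgRNA5, and 69.7 and 43.2 in sgRNA6. Inside the blocks the replicate 2 list of sgRNA2 had this order too, at 84.6 and 35.6. Those of sgRNA1 (55.4 and 65.3) and sgRNA3 (45.5 and 63.6) had the reverse. Their unshared members numbered only 3 for sgRNA1 and 2 each for sgRNA2 and sgRNA3. Shared members of the single libraries were also wider, with medians of 899 bp against 577 bp in sgRNA4, 691.5 bp against 555 bp in sgRNA5 and 874 bp against 594 bp in sgRNA6. Outside the blocks the order was again the same, with 842 and 659 bp in sgRNA4, 698 and 542 bp in sgRNA5, and 851 and 622 bp in sgRNA6. Since 1 bp of overlap counts as sharing, sharing is not independent of width. All these medians are descriptions of 1 library each.

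Counted library by library, members overlapped a peak of another guide about as often as other peaks did. In sgRNA4, 102 of 178 members did (57.3%), with 53.0% outside the blocks and 53.1% in the whole list. In sgRNA5 it was 102 of 163 (62.6%), with 65.2% outside and 65.1% in the whole list, and in sgRNA6 137 of 414 (33.1%), with 27.0% outside and 27.1% in the whole list. For sgRNA6 the 95% interval inside, 28.6 to 37.9%, lay above that outside, 26.6 to 27.5%, and in sgRNA4 and sgRNA5 the intervals overlapped. This is no test, since peaks of 1 list are not replicates. In the replicate 2 lists 25 of 28 sgRNA1 members were shared (89.3%; 87.6% of the whole list), 13 of 15 sgRNA2 members (86.7%; 94.0%) and 14 of 16 sgRNA3 members (87.5%; 81.7%). All 4 sgRNA2 replicate 1 members were shared (74.1% of the whole list), and none of the 3 of sgRNA1 (25.0%) or the 4 of sgRNA3 (31.7%), counts whose exact upper limits are 70.8% and 60.2%. Over the 6 guides the mean difference, inside minus outside, was -1.45 percentage points, positive in 3 guides and negative in 3 (exact sign-flip permutation test, two-sided, p = 0.719, Benjamini-Hochberg adjusted p = 0.781). Overlap is mutual between lists, so the guides are not independent in this test.

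**Figure D4:**
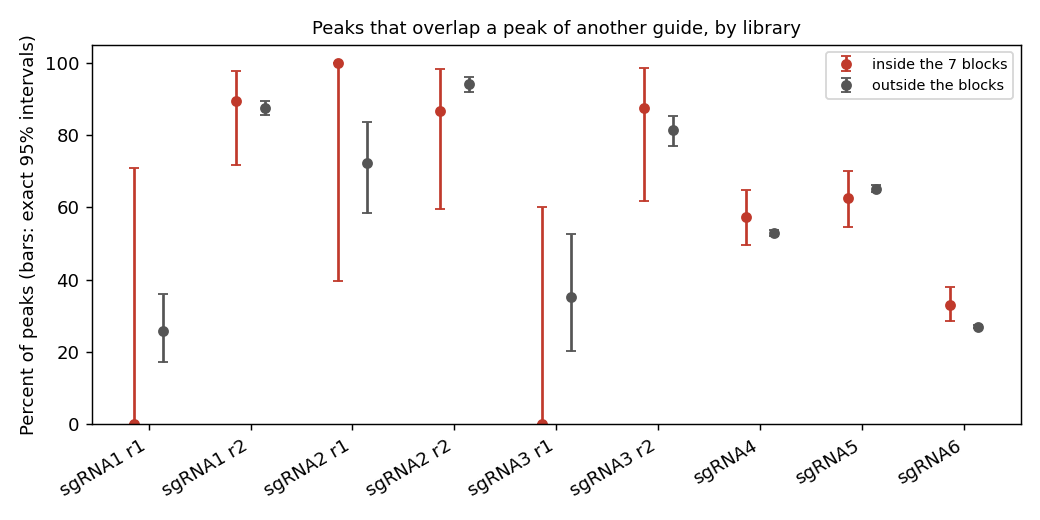
Percent of peaks that overlap a peak of another guide, inside the 7 blocks (red) and outside (grey), with exact 95% intervals that cover counting error only. The sgRNA6 value is 33.1% inside and 27.0% outside, while the replicate 1 intervals inside, from 3 or 4 peaks each, span most of the axis.

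By partner, the members of the replicate 2 lists overlapped peaks of the other replicated guides more often than other peaks of the same lists did, on small counts, and the replicate 1 lists were divided. In sgRNA3 replicate 2, 8 of 16 members (50%) overlapped an sgRNA1 peak, against 24.3% outside the blocks. In sgRNA1 replicate 2, 9 of 28 overlapped an sgRNA3 peak (32.1%), against 7.12% outside. In sgRNA2 replicate 2, 4 of 15 overlapped an sgRNA3 peak (26.7%), against 8.29% outside. These counts are not separate instances. Overlap is mutual, so the sgRNA1 and sgRNA3 counts describe the same regions from either list. The 3 regions found with all 6 guides enter each of these counts. With sgRNA6 as the partner the same lists gave 81.3% inside and 70.5% outside (sgRNA3), 75.0% and 76.2% (sgRNA1), and 66.7% and 82.3% (sgRNA2). In replicate 1, 3 of 4 sgRNA2 members overlapped an sgRNA1 peak, against 18.5% outside. None of the 3 sgRNA1 members overlapped an sgRNA3 peak, against 6.45% outside, and none of the 4 sgRNA3 members an sgRNA1 peak, against 10.8% outside. These shares were not tested.

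Of the 11 members in replicate 1 lists, 3 overlapped a replicate 2 peak of their own guide. For sgRNA2 these were the chromosome 1 region at 144930545 to 144933159 and the chromosome 10 region at 46951170 to 46952181, both found with all other guides too. For sgRNA3 it was a chromosome 1 peak from 143437945 to 143439044 that no other guide's list contained. It scored 89.02 in replicate 2, at rank 45, and 62.92 in replicate 1, at rank 23. It was 2340 bp wide in replicate 2 and 1100 bp in replicate 1. No member was found in both replicates of sgRNA1.

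The members of replicate 1 that did not recur were of different kinds. The 3 of sgRNA1, on chromosome 10 at 48530875 to 48531176 (65.38, rank 20 of 96), chromosome 7 at 64790591 to 64791037 (62.89, rank 25) and chromosome 1 at 145246091 to 145246748 (50.55, rank 92), were in no other list. Likewise unshared were 3 sgRNA3 peaks on chromosome 10, including neighbours at 42596702 to 42597432 (61.22, rank 26 of 41) and 42599524 to 42600459 (104.3, rank 6). The first of these neighbours itself sets the upper end of the longest peak-free stretch of that block. The remaining sgRNA2 peaks on chromosome 9, at 70856532 to 70857125 and 42750053 to 42750328 (53.24, rank 45 of 58), were absent from replicate 2 but overlapped peaks of 4 other guides and of sgRNA5 alone.

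As a share of replicate 1 peaks, recurrence in replicate 2 was 0 of 3 inside the blocks and 35 of 93 outside (37.6%) for sgRNA1, where 36.5% of the whole list recurred. It was 2 of 4 inside (50%) and 14 of 54 outside (25.9%) for sgRNA2, with 27.6% in the whole list, and 1 of 4 inside (25.0%) and 16 of 37 outside (43.2%) for sgRNA3, with 41.5%. The guides differed in direction, and the mean difference of -10.6 points had p = 0.75 (exact sign-flip permutation test over 3 guides, two-sided; smallest possible 0.25). With 3 guides this test cannot pass 0.05, whatever the difference.

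Members stood at all levels of their lists. Among lists with at least 5 members, the median score percentile inside the blocks was highest in sgRNA2 replicate 2, at 73.2 against 49.4 outside, and lowest in sgRNA3 replicate 2, at 45.5 against 50.3. It was 55.9 against 49.9 in sgRNA1 replicate 2, 50.24 against 49.98 in sgRNA4, 56.6 against 49.9 in sgRNA5 and 53.7 against 49.9 in sgRNA6. The mean difference over the 6 guides was 5.97 ± 9.73 percentile points (SD), higher inside in 5 guides and lower in 1 (exact sign-flip permutation test, two-sided, p = 0.156, Benjamini-Hochberg adjusted p = 0.3125). Without sgRNA2 replicate 2 the mean over the remaining 5 guides was 2.40 points (p = 0.3125, exact permutation test).

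**Figure D5:**
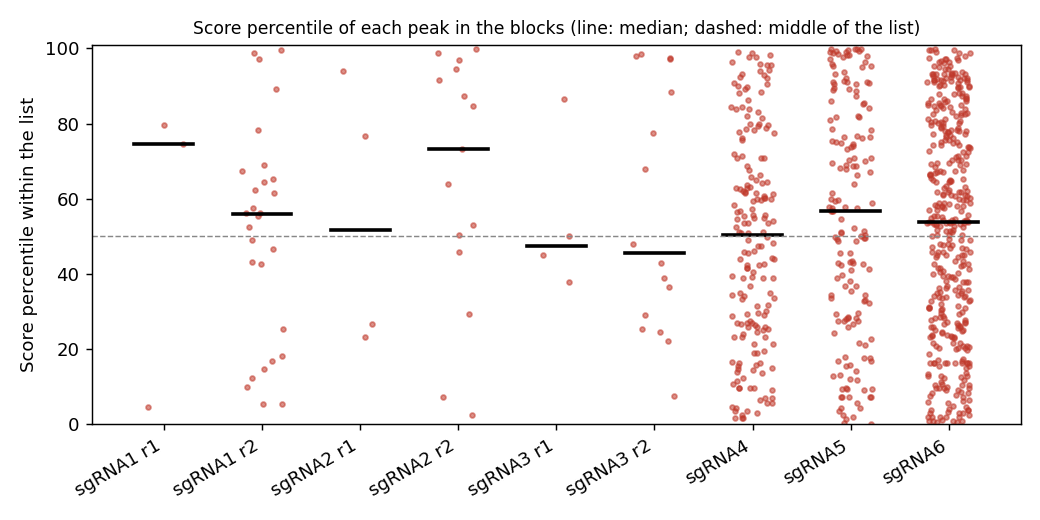
Score percentile of each member within its own list (100 is the highest peak; points are spread sideways to be seen), with the median as a black line and the middle of the list dashed. Points fill the whole range in sgRNA4, sgRNA5 and sgRNA6, with medians of 50.2, 56.6 and 53.7.

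At the top of the lists the guides differed. In sgRNA5, 31 members (19.0%) belonged to the highest 10% of the list, against 9.83% of peaks outside the blocks. In sgRNA2 replicate 2 it was 5 members (33.3%) against 9.37%, and in sgRNA3 replicate 2 4 members (25.0%) against 9.29%. In sgRNA6 it was 52 (12.6%) against 9.97%, in sgRNA1 replicate 2 3 (10.7%) against 10.0%, and in sgRNA4 17 (9.55%) against 10.0%. Of the 382 highest peaks, as many as the shortest replicate 2 list holds, the blocks held 18 in sgRNA5 (4.71%) and 12 in sgRNA2 replicate 2 (3.14%). They held 16 in sgRNA3 replicate 2, where this is the whole list, and 5 each in sgRNA1 replicate 2, sgRNA4 and sgRNA6 (1.31%). At equal list length sgRNA5 thus had more of its highest peaks in the blocks than the other single libraries, which was not tested.

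Peak width in the blocks was close to that elsewhere in 4 guides and larger in the other two. In sgRNA3 replicate 2 the median was 949.5 bp inside and 675.5 bp outside, and in sgRNA2 replicate 2 991 bp inside and 814 bp outside. The medians were 716.5 bp inside and 719.5 bp outside in sgRNA1 replicate 2, 750 bp and 751 bp in sgRNA4, 633 bp and 628 bp in sgRNA5, and 679.5 bp and 669 bp in sgRNA6. The mean difference was 77.1 ± 119 bp (SD, 6 guides), positive in 4 and negative in 2 (exact sign-flip permutation test, two-sided, p = 0.125, Benjamini-Hochberg adjusted p = 0.3125). Without sgRNA3 replicate 2 it was 37.7 bp over 5 guides (p = 0.25, exact permutation test). With the chromosome 1 block left out it was -4.80 bp over the 5 guides that still had enough members (p = 0.9375, exact permutation test). The guide that dropped out was sgRNA3, whose replicate 2 list kept only 4 members. The -4.80 bp therefore stands beside the 37.7 bp of the same 5 guides, and not beside 77.1 bp. With mean in place of median width the mean difference was 132 bp, positive in all 6 guides (exact permutation test, unadjusted p = 0.031, the smallest it can give).

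The widest peaks stood mostly on chromosome 1. Of all members 19 (2.30%) were at least 2000 bp wide, against 0.917% of all peaks. By list they numbered 7 in sgRNA5 (4.29%; 0.419% of its whole list), 6 in sgRNA4 (3.37%; 1.22%), 3 in sgRNA6 (0.725%; 0.901%), 2 in sgRNA2 replicate 2 (13.3%; 2.28%) and 1 in sgRNA3 replicate 2 (6.25%; 1.05%), and there was none in sgRNA1 replicate 2 (0.704% of the list) or in any replicate 1 list (0.0% of the sgRNA1 and sgRNA3 lists and 1.72% of the sgRNA2 list). The share in sgRNA6 was below that of its list, and the shares in sgRNA4 and sgRNA5 were above. Of the 19, 14 lay in the chromosome 1 block, 2 each on chromosomes 2 and 7 and 1 on chromosome 9.

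The widest member, 3785 bp, was the sgRNA6 peak on chromosome 1 at 143912415 to 143916199, in the region found with 5 guides. Elsewhere in that block, wide peaks of 3 guides overlapped, those of sgRNA4 (148927955 to 148931451, 3497 bp, score 231.23), sgRNA5 (148927840 to 148931050, 3211 bp, 149.81) and sgRNA2 replicate 2 (148927525 to 148929820, 2296 bp, 54.7). Some wide peaks had low scores: that of sgRNA4 on chromosome 2 at 91802605 to 91806240 (3636 bp) scored 54.99, and on chromosome 7 the wide peaks of sgRNA4 (56437863 to 56440808, 2946 bp) and sgRNA2 replicate 2 (56438044 to 56440839, 2796 bp) scored 54.87 and 60.27. A wide peak was thus not necessarily a high one.

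Chromosome 1 therefore stood apart among the blocks in several measures, though not clearly in score percentile. Its 253 members had a median width of 836 bp and 172 of them (68.0%) overlapped a peak of another guide, against 648 bp and 225 of 572 (39.3%) in the other 6 blocks. The order held in each single library: the shared part was 77.6% on chromosome 1 against 49.6% in the other blocks for sgRNA4, 73.8% against 55.1% for sgRNA5 and 55.8% against 25.5% for sgRNA6. In the replicate 2 lists nearly all members were shared in either place: 13 of 16 on chromosome 1 and 12 of 12 in the other blocks for sgRNA1, 4 of 4 and 9 of 11 for sgRNA2, and 10 of 12 and 4 of 4 for sgRNA3. The median score percentile over all lists was 54.5 on chromosome 1 and 52.6 in the other 6 blocks. By list it was 66.4 against 51.1 in sgRNA5, 53.77 against 53.64 in sgRNA6 and 68.8 against 73.2 in sgRNA2 replicate 2. The chromosome 1 block was singled out after its values were seen, so this is a description without a test.

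The borders of the blocks are round positions. The 14 members nearest to a border scored 52.39 to 187.36, and the 13 nearest peaks beyond a border scored 54.68 to 287.66. These peaks belong to different lists, so their scores are not compared. The members lay up to 506 kb from the border, and the peaks beyond it up to 21239.2 kb.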

How the data were processed

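Peaks of 9 ChIP-seq libraries were analysed. Bowtie, Bowtie2, MACS and the build hg19 are named per the submitters' processing notes; the sources used here give neither versions nor settings. A deposited list has 1 line per peak with its position, a name and a score, which is the authors' value for that peak. Peaks were listed for each library separately, and depth is unknown. No gene names or sequences were used, since only tables of another build were at hand.

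From these lists, membership of the 7 blocks by peak start, overlap (at least 1 bp), score rank within a list, width and merged regions were computed. Positions are counted from 1. The density length of a chromosome ends at its last peak in any list. Inside and outside were compared per library, averaged per guide and tested over guides by exact two-sided sign-flip permutation, adjusted by Benjamini-Hochberg over 4 measures (density, sharing, width, score percentile). Width and percentile were compared in lists with at least 5 members. The blocks, regions and tests were chosen with earlier results of these data known. Regions named were, by rule, the 3 highest members of each list, the 12 regions found in most libraries, the most recurrent and the widest region and the longest run of each block, the widest member and members found in both replicates; the other wide peaks were named after their values were seen.

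Replicates of the same number deviated together: across 23 chromosomes, the deviations of peak share from the guide mean correlated between guides at r = 0.40, 0.44 and 0.32, so the numbers were taken to pair the libraries. This pairing comes from the data and not from the labels, and the correlations were not tested. Replicate 1 lists held 41 to 96 peaks and replicate 2 lists 382 to 1278. Replicate number can therefore not be told apart from list length. Alternatives were a stricter overlap, centres within 500 bp, the higher-scoring 50% of each list, membership by centre, merging within 1000 bp, covered length, mean width, and leaving out blocks or replicates. Overlap code was checked against a direct search on peaks drawn from these lists, and permutation code on simulated or made-up values. Computations used Python 3.11.15, numpy 2.4.6, pandas 2.3.3, scipy 1.17.1 and matplotlib 3.10.9.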

Additional observations from a re-analysis of the deposited data

Results flagged for a closer look

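In the replicated guides, the difference in median width between peaks inside and outside the blocks had opposite signs in both libraries of one guide and both of another. It was 67.5 bp in replicate 1 and 177 bp in replicate 2 of sgRNA2, and 336.5 bp and 274 bp in the same order for sgRNA3, where sgRNA1 had -16 bp and -3 bp. The difference in median score percentile was 26.04 points in replicate 1 and 6.025 points in replicate 2 of sgRNA1, and 1.724 and 23.86 points in sgRNA2, where sgRNA3 had -4.878 and -4.777 points. The differences between guides were not tested, and the replicate 1 values rest on 3 or 4 members each.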

How the results depend on the processing

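Of 103 recomputed values of the tested results, 85 kept their direction and side of the 0.05 threshold, 15 changed sign, none of them past the threshold, and 3 passed it. The tests of share, replicate difference and recurrence cannot pass 0.05 in any setting, so their side of it was fixed. Membership by centre changed no tested value. Leaving out replicate 1 lists cannot change width or percentile, since those lists have fewer than 5 members. The count of 85 is therefore not a measure of stability. The sharing difference became 1.82 points with an overlap of 50% of both peaks, 0.414 with centres within 500 bp and 0.418 without the chromosome 2 block. The mean log2 density ratio became 0.0127 with the higher-scoring 50% of each list, 0.35 without the chromosome 9 block and 0.0828 with covered length. With settings chosen after seeing the data it became 0.48 without peak-free stretches, which by construction raises it. It was 0.0731 with at most the 382 highest peaks of each list, also chosen after seeing the data. The replicate 1 lists are shorter than that and entered whole. The width difference was -4.80 bp without the chromosome 1 block, over 5 guides, since sgRNA3 then had too few members. It was 94.8 bp without the chromosome 2 block, 80.7 bp without the chromosome 15 block and 132 bp with mean width. Each of these 3 had p = 0.031 (exact permutation test, unadjusted), and the p over all width alternatives lay between 0.031 and 0.9375. With libraries or replicates left out, the density ratio ranged from -0.38 to 0.16 (positive without sgRNA2 replicate 2 or all replicate 2 lists). Sharing ranged from -4.89 to 1.98 (positive without sgRNA1 replicate 1, sgRNA2 replicate 2, sgRNA3 replicate 1 or all replicate 1 lists). The percentile difference ranged from 2.40 (without sgRNA2 replicate 2) to 8.12 (without sgRNA3 replicate 2), each over 5 guides. The spread of guide shares ranged from 2.11 (without sgRNA3 replicate 1) to 7.10 points (without sgRNA3 replicate 2). Width ranged from 4.83 bp (without all replicate 2 lists) to 93.1 bp (without sgRNA1 replicate 2). The 4.83 bp is a mean over 3 guides, sgRNA4, sgRNA5 and sgRNA6, and the 93.1 bp over 5, so these ends rest on different guides. The causes were not tested. With the replicate number as a block, the spread of 4.31 points had p = 0.167 (exact permutation test), the smallest its 6 arrangements allow, and this changed no call.

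Limits are the unknown read depth, the missing replicate of sgRNA4, sgRNA5 and sgRNA6, the 11 members of the replicate 1 lists, and blocks whose round borders hold duplicated and single-copy sequence alike.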
